A study of Mus musculus with 2 samples.

Results

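The genes described here are 47 components of the autophagy machinery and of the mTOR and AKT pathway, taken by gene name from the deposited expression table of 34745 genes. All 47 names were found once each, and all passed the filter of at least 1 FPKM (a read count divided by the gene's length and by the library total) in at least one library. Bone marrow cells of C57BL/6 mice of 6 to 8 weeks were cultured for 7 days and the monocytic myeloid-derived suppressor cells (M-MDSC) were isolated by flow cytometry as CD11b+Ly6G-Ly6C high cells. The CHBP- M-MDSC received GM-CSF, the myeloid growth factor that both groups share, and the CHBP+ M-MDSC received GM-CSF and CHBP, a cyclic peptide derived from erythropoietin that lacks its red cell activity. No gene was deleted in either group. The labels write the strain of the CHBP+ sample as C57BL/7, whereas the protocol names C57/B6 mice for both. Each condition is 1 library, so no difference below has a replicate check. An effect of CHBP cannot be told apart from anything else in which the 2 cultures or their libraries differed. Whether several mice were pooled is not given in the sources used here.

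Autophagy is the route by which a cell encloses cytoplasm, damaged organelles or microbes in a double membrane and delivers them to the lysosome. The ULK kinase complex starts it, a class III PI3 kinase marks the membrane, ATG2 and ATG9 supply lipid, and ubiquitin-like conjugation attaches ATG8 proteins (LC3 and GABARAP) that hold cargo receptors. The kinase mTOR, in the complex mTORC1, holds ULK back when amino acids and growth factor signals through AKT are plentiful, whereas AMPK activates ULK when energy is short. In myeloid cells the same genes serve differentiation, survival and the handling of engulfed material.

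The libraries held 16484504 and 16280466 counted reads in CHBP- and CHBP+ M-MDSC. Of the sorting markers, Ly6c2 had 4091 and 2411 reads and Ly6g, a neutrophil marker absent from the gate, had 46 and 44 reads. Itgam, which encodes CD11b, was listed under 2 gene identifiers, with 18653 and 27265 reads in the first entry. Of the other cell types, all 7 neutrophil genes had reads, with a sum of 3421 and 3989 CPM (reads scaled to the library total), most of it Mmp8 with 52166 and 61738 reads. The other 6 neutrophil genes summed to 257 and 197 CPM, and 5 of them, among them Elane and Mpo, were below 1 in fold. Of the 5, Ly6g and Camp were within counting error, and 53.7% of all genes kept had a log2 ratio below 0. All 6 erythroid genes were kept, with sums of 1863 and 787 CPM, as were all 4 B cell genes, with 104 and 76.2 CPM. The 6 mast cell and basophil genes were all kept too, with 421 and 378 CPM, and went both ways. Ms4a2 with 182 and 446 reads and Kit with 646 and 740 were higher in CHBP+ M-MDSC. The others were lower, Fcer1a within counting error. Of 6 T cell genes 1 was kept, with a sum of 10.01 and 8.60 CPM, and of 3 NK cell genes 0, with 1.33 and 2.27 CPM and Ncr1 at 0. Of 6 dendritic cell genes 2 were kept, with 589 and 776 CPM, most of it Itgax, and Xcr1 was at 0. The part of these other cells in the results was not tested. In such bulk RNA, fewer cells of a type and less RNA per cell cannot be told apart.

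Together, the 47 genes took 3751 CPM in CHBP- and 3588 CPM in CHBP+ M-MDSC, a sum 0.957-fold as high. Their reads ran from 125 to 9889 in CHBP- and from 88 to 7826 in CHBP+ M-MDSC, so that each had reads enough for a ratio. Levels between genes are compared here as CPM per kilobase of the longest annotated transcript. On this scale the median gene had 11.2 in CHBP- and 11.6 in CHBP+ M-MDSC, and the range was from 4.34 to 444 and from 4.56 to 338. The ATG8 protein Gabarap, the cargo receptor Sqstm1, the kinase Akt1 and the ATG8 protein Gabarapl1 held ranks 1 to 4 in both libraries, and 31 of 47 genes in CHBP- M-MDSC were under 20 CPM per kilobase. Ranks 5 and 6, Eif4ebp1 and Atg3, changed places between the libraries, and the lowest gene was Rptor in CHBP- and Atg16l2 in CHBP+ M-MDSC.

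**Figure D1:**
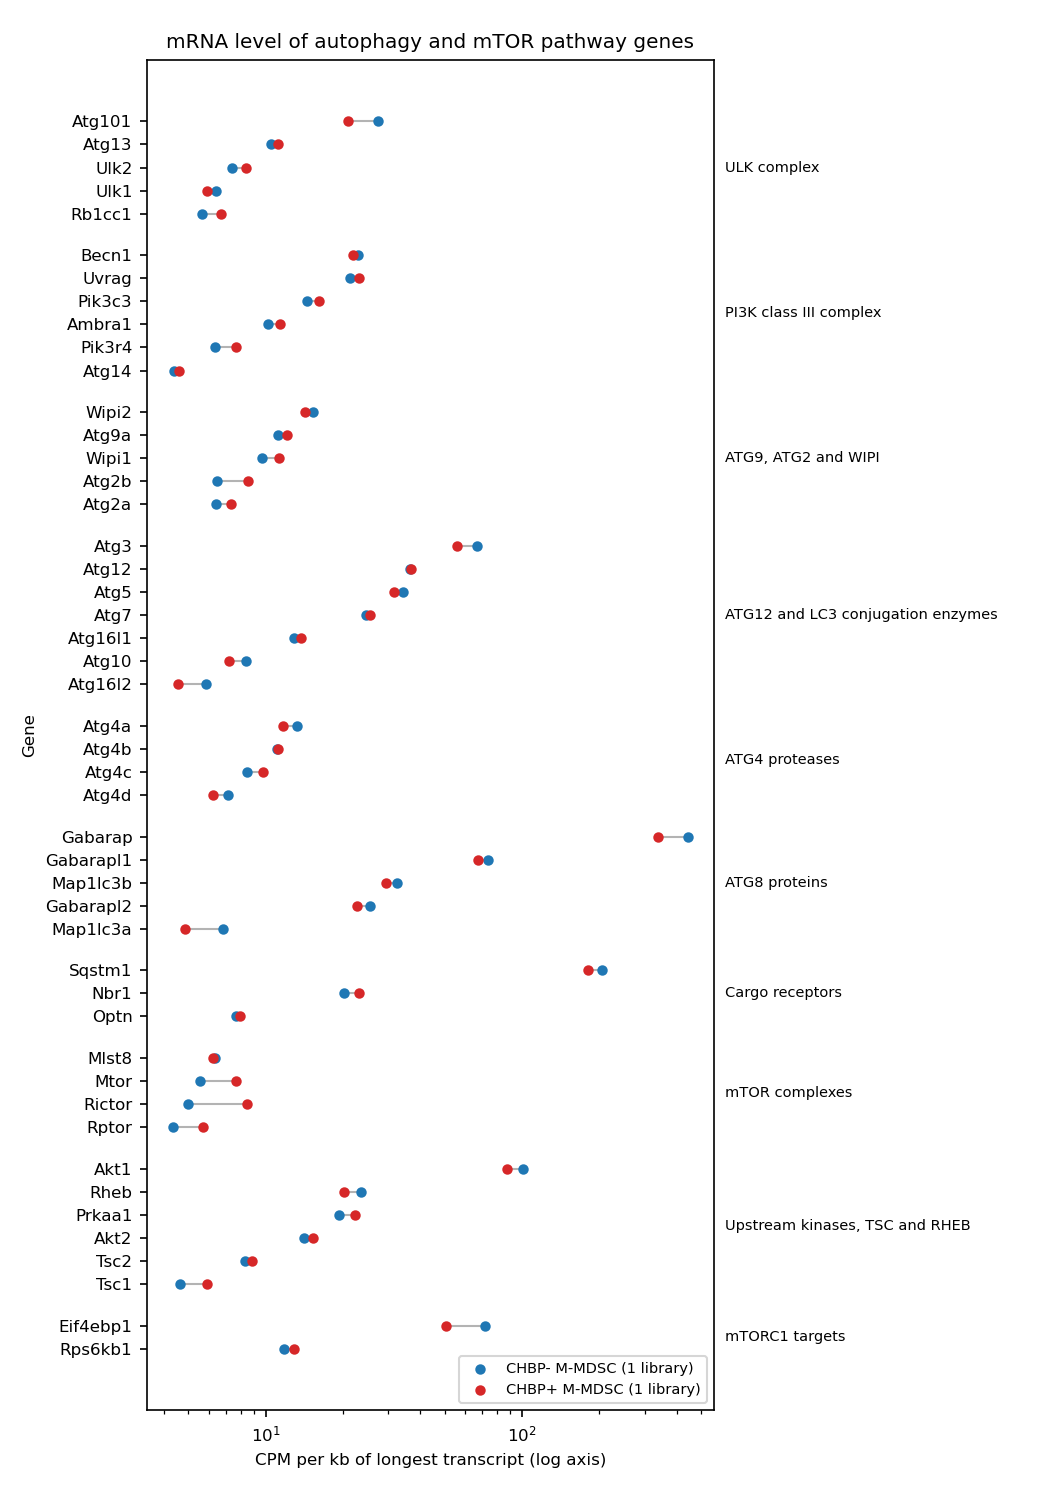
Level of each of the 47 genes, grouped by role, as CPM per kilobase of the longest transcript on a log axis, with 1 point for each library. Gabarap is highest, at 444 in CHBP- and 338 in CHBP+ M-MDSC, and the points of both libraries lie close together beside the range between genes.

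The comparison asks which of these mRNAs differed between M-MDSC induced without and with CHBP. The log2 ratio of CHBP+ over CHBP-, taken after adding 1 to each FPKM, makes differences look smaller where FPKM is low, and the fold given beside it is the CPM of the CHBP+ library divided by that of the CHBP- library, with its exact 95% Clopper-Pearson interval. These intervals cover counting error only. A single gene, Rictor, was at least 1.5-fold higher in the CHBP+ library, and 0 were 1.5-fold lower, where 1.5-fold is the fold threshold of the study's methods. Among the 10948 genes that passed the filter, 3.42% were that much higher and 2.89% that much lower. The median log2 ratio was 0.04 over the 47 genes and -0.03 over all genes kept, with 27 genes above 0 and 20 below. Across all genes kept, 46.3% were above 0. The SD between genes was 0.22 for the 47 and 0.34 for all.

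By a two-sided exact binomial test of each gene's reads with Benjamini-Hochberg adjustment over 14162 genes, 22 of the 47 genes passed at an adjusted p of 0.05, 12 higher and 10 lower in CHBP+ M-MDSC. Over all genes tested, 44.1% passed, 21.9% higher and 22.2% lower, so the share of the 47 genes lay near that of all genes. All genes tested include those with as few as 10 reads in all, whereas Map1lc3a, with the fewest of the 47, had 125 and 88. A share at like read depth was not computed. The binomial test compares the 2 libraries and not the conditions. With trimmed mean of M values scaling, 26 of the 47 genes passed.

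**Figure D2:**
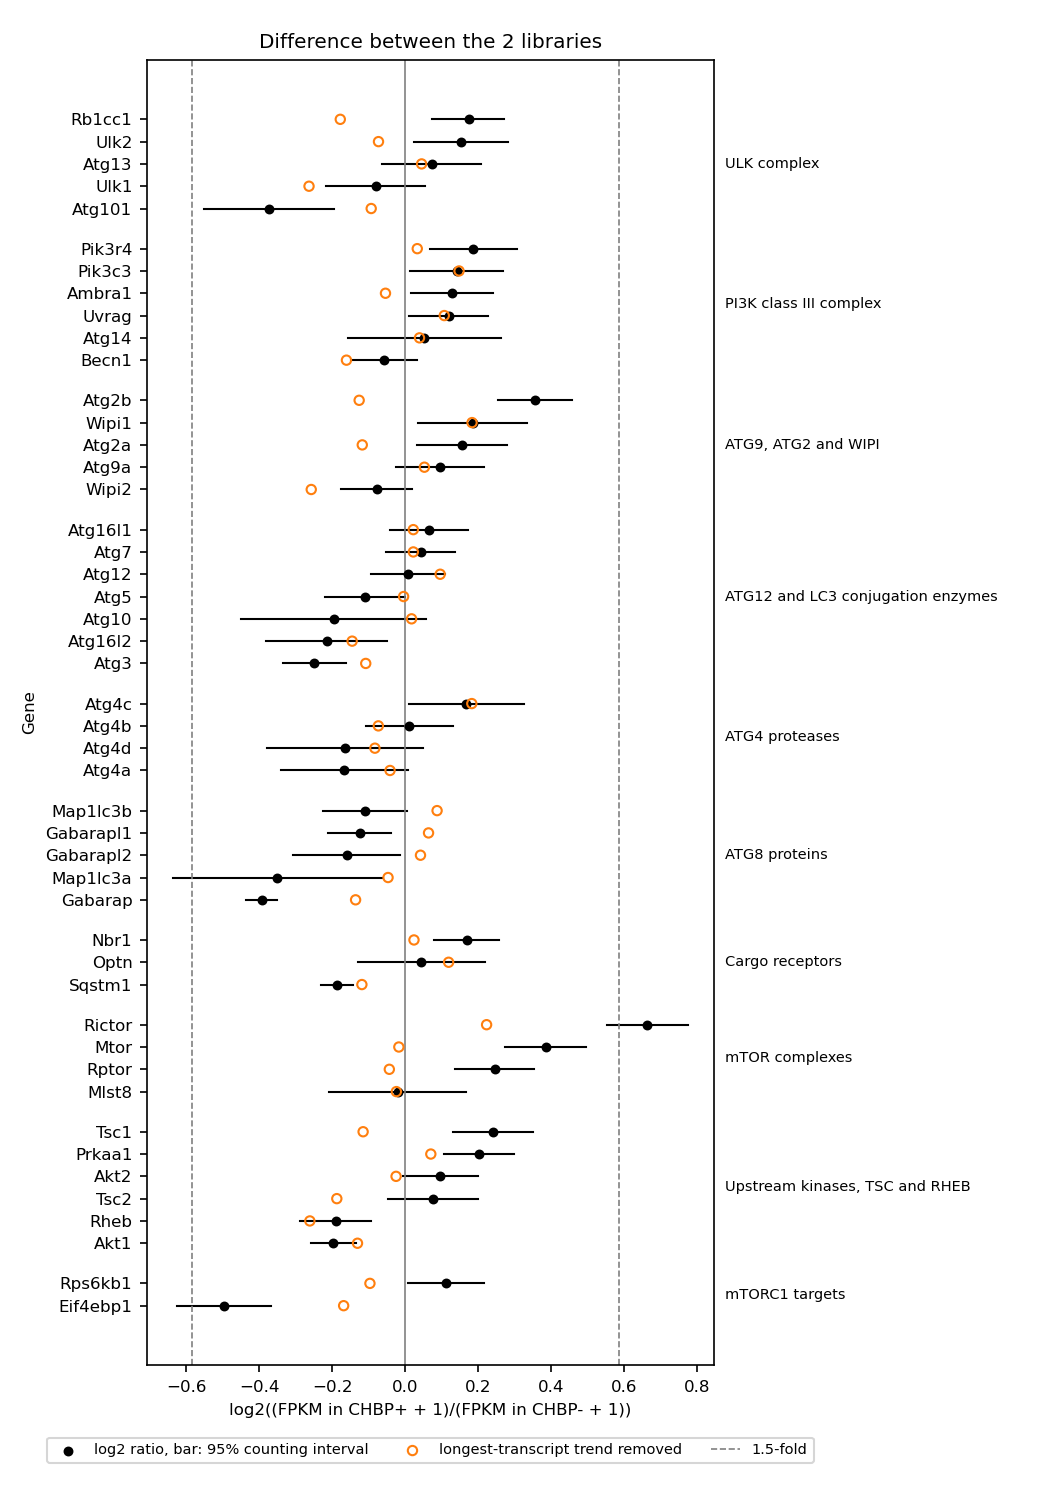
The log2 ratio of each gene, CHBP+ over CHBP- M-MDSC, with its 95% counting interval (black) and the value once the trend with longest transcript length was removed (open orange circles), on a linear axis. Dashed lines mark 1.5-fold, which Rictor alone passes, and its open circle lies at 0.22, inside the lines.

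The log2 ratio followed transcript length in these genes as it did in all genes. Spearman's rho of the log2 ratio with the length of the longest transcript in the GENCODE M1 annotation was 0.805 across the 47 genes, which come from the same 2 libraries and are no replicates of each other, and it was 0.658 across the 10508 genes kept that had a transcript there. Of 17 genes with a transcript under 3 kb, 2 had a log2 ratio above 0 (median -0.19), of 17 genes from 3 to 5 kb, 14 did (median 0.10), and of 13 genes over 5 kb, 11 did (median 0.16). In the same length classes, 21.1%, 61.9% and 90.4% of all genes were above 0, with medians of -0.17, 0.06 and 0.29. The genes over 5 kb thus had a lower median than all genes of that length, although most were above 0. With the trend removed by local regression on that length, 19 of the 47 genes were above 0, against 50.5% of all genes, and 1 of the 13 genes over 5 kb was, Rictor. At least 1.5-fold higher were then 0 of the 47 genes and 2.34% of all (246 genes, with 106 lower). With the trend in the length behind the deposited FPKM removed in its place, 0 of the 47 were, against 3.22% of all (353 genes, with 157, or 1.43%, lower). The SD of single genes was 0.26 around the trend in longest transcript and 0.30 around that in deposited length. Each role below is given also with the transcript trend removed from some of its genes.

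**Figure D3:**
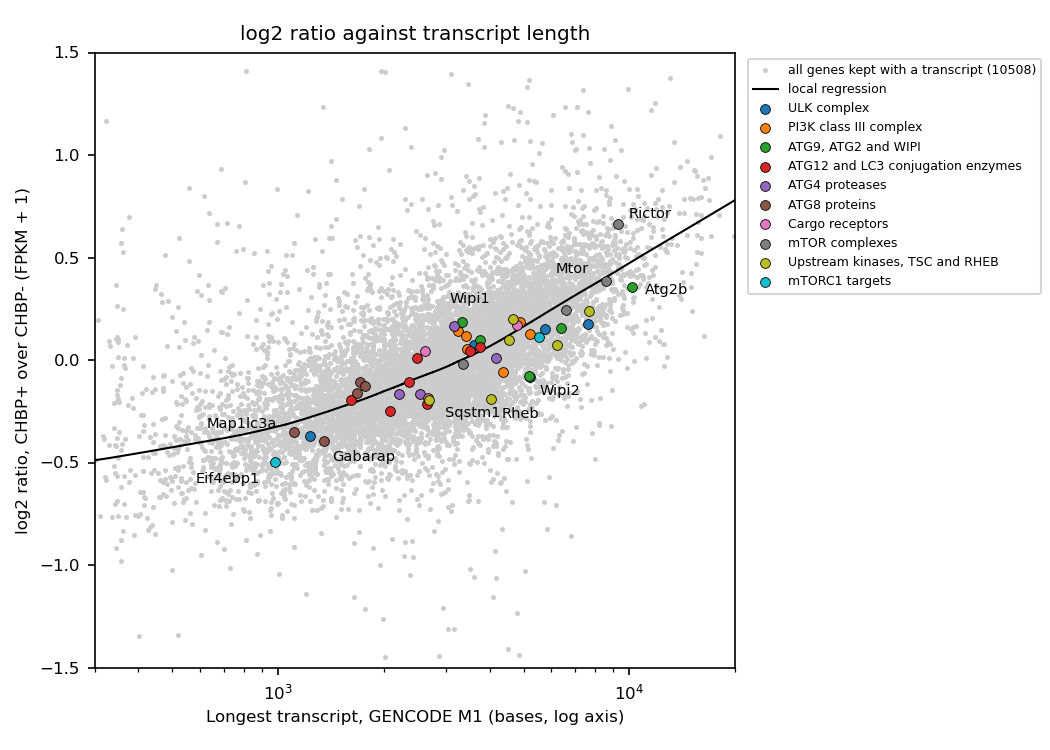
The log2 ratio (FPKM + 1) of each gene against the length of its longest transcript on a log axis, with all 10508 genes in grey, a local regression in black and the 47 genes coloured by role. Eif4ebp1 and Gabarap lie at the short, low end and Mtor, Atg2b and Rictor at the long, high end, with Rictor above the curve, and 70 grey genes lie outside the plotted range.

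The mTOR complexes had the largest median log2 ratio of the 10 roles, 0.32, and their 4 genes summed to 144 CPM in CHBP- and 203 CPM in CHBP+ M-MDSC. Rictor (ENSMUSG00000050310), the scaffold that defines mTORC2, the complex that phosphorylates AKT, is listed on chromosome 15 from 6708381 to 6800398 (GRCm38). It had 765 reads in CHBP- and 1285 in CHBP+ M-MDSC (4.98 and 8.48 FPKM). Its log2 ratio was 0.66 and its fold 1.70 (1.55 to 1.86), beyond counting error. The log2 ratio was 0.57 with the trend in the length behind the deposited FPKM removed, and 0.22 with that in longest transcript removed, both below the 1.5-fold line of 0.58.

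Mtor (ENSMUSG00000028991, chromosome 4 from 148448611 to 148557683), the kinase shared by both complexes, had 781 and 1065 reads, or 4.11 and 5.67 FPKM, in CHBP- and CHBP+ M-MDSC. Its fold was 1.38 (1.26 to 1.52) and its log2 ratio 0.39, which became -0.02 with the transcript trend removed. Rptor, the scaffold of mTORC1, had 472 and 614 reads, a fold of 1.32 (1.17 to 1.49) and a log2 ratio of 0.25, which became -0.04. Mlst8, a small subunit of both complexes, had 352 and 342 reads, or 6.06 and 5.96 FPKM, and a fold of 0.98 (0.85 to 1.14), within counting error. Its span overlaps that of Bricd5, which had few reads. With the transcript trend removed, Rictor was the only one of the 4 above 0, and with the trend in deposited length removed Rptor alone was below, at -0.05. Of the pair of scaffolds, Rictor differed more than Rptor, with a ratio of their folds of 1.29 (1.11 to 1.504, exact interval for counting error). Each pair given such a ratio here and below was chosen after its values were seen, with the higher fold on top.

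Above mTORC1, the 6 genes of the kinases, the TSC complex and RHEB went both ways. By the read test, 2 were higher and 2 lower in CHBP+ M-MDSC, where 21.9% and 22.2% of all genes tested were. Akt1, a kinase that growth factor signals activate, was the most abundant of the 6, with 4455 and 3827 reads, or 49.5 and 43.0 FPKM. Its fold was 0.870 (0.833 to 0.908) and its log2 ratio -0.20. Its paralog Akt2 had 1061 and 1134 reads and a fold of 1.08 (0.99 to 1.18). Tsc1, which holds RHEB back together with Tsc2, had 589 reads in CHBP- and 739 in CHBP+ M-MDSC (2.06 and 2.62 FPKM), a fold of 1.27 (1.14 to 1.42) and a log2 ratio of 0.24. Tsc2 had 853 and 893 reads and a fold of 1.06 (0.96 to 1.17), and it overlaps Pkd1, which had 425 and 645 reads. Rheb, the small GTPase that activates mTORC1, had 1563 and 1336 reads and a fold of 0.865 (0.804 to 0.932). Prkaa1, a catalytic subunit of AMPK, had 1482 and 1695 reads and a fold of 1.16 (1.08 to 1.24). With the transcript trend removed, Rheb stood at -0.26, Akt1 at -0.13 and Tsc1 at -0.12, and Prkaa1 at 0.07.

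Below mTORC1, Eif4ebp1 (ENSMUSG00000031490, chromosome 8 from 27260327 to 27275656) had the lowest log2 ratio of all 47 genes. It encodes 4E-BP1, which binds the cap-binding factor eIF4E and blocks translation until mTORC1 phosphorylates it. It had 1162 reads in CHBP- and 809 in CHBP+ M-MDSC (71.9 and 50.7 FPKM). Its fold was 0.705 (0.644 to 0.772) and its log2 ratio -0.50, just short of 1.5-fold, and -0.17 with the transcript trend removed. At 981 bases its transcript is the shortest of the 47. Rps6kb1, the S6 kinase, had 1075 and 1162 reads, or 6.02 and 6.59 FPKM, and a fold of 1.09 (1.01 to 1.19), with an adjusted p of 0.073 in the exact binomial test of reads. It overlaps Rnft1, which had 950 and 923 reads.

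The ULK complex, which starts autophagy, held genes on both sides of 0. Rb1cc1, its long scaffold FIP200, had 705 and 832 reads, or 1.90 and 2.27 FPKM, in CHBP- and CHBP+ M-MDSC, and a fold of 1.19 (1.08 to 1.32). Atg101, a small subunit that steadies Atg13, had 558 and 421 reads, or 27.5 and 21.0 FPKM. Its fold was 0.764 (0.672 to 0.869) and its log2 ratio -0.37, the third lowest of the 47. With the transcript trend removed, the log2 ratio was -0.18 for Rb1cc1 and -0.09 for Atg101, so that their order turned. Of the paralogous kinases, Ulk1 had 548 and 503 reads (fold 0.93, 0.82 to 1.05), within counting error, and Ulk2 had 701 and 782 (fold 1.13, 1.02 to 1.25). Their longest transcripts have 5213 and 5743 bases, and the ratio of their folds, Ulk2 over Ulk1, was 1.22 (1.03 to 1.43). With the transcript trend removed both stood below 0, Ulk1 at -0.26, the lowest of the 47, and Ulk2 at -0.07. Atg13, which links the kinase to its scaffold, had 624 and 654 reads and a fold of 1.06 (0.95 to 1.19).

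In the class III PI3 kinase complex, 5 of 6 genes had a log2 ratio above 0 and 1 passed the read test. Among all genes, 46.3% of those kept were above 0 and 44.1% of those tested passed. Pik3r4, the regulatory subunit VPS15, had 513 reads in CHBP- and 610 in CHBP+ M-MDSC (2.1 and 2.52 FPKM), a fold of 1.20 (1.07 to 1.36) and a log2 ratio of 0.19. Becn1, the scaffold Beclin 1, had 1655 and 1562 reads, or 7.92 and 7.57 FPKM, and was lowest, with a fold of 0.96 (0.89 to 1.02), within counting error. Uvrag and Atg14 take turns on Beclin 1, the first mainly in later, endosomal steps and the second at the forming autophagosome. Uvrag had 1207 and 1299 reads, or 21.3 and 23.2 FPKM, and a fold of 1.09 (1.01 to 1.18), and Atg14 had 250 and 258 reads and a fold of 1.04 (0.87 to 1.25). The catalytic subunit Pik3c3 (776 and 854 reads) and the regulator Ambra1 (875 and 960 reads) each had a fold of 1.11. Once the transcript trend was removed, Pik3r4 stood at 0.03, Becn1 at -0.16, Uvrag at 0.11, Pik3c3 at 0.15 and Ambra1 at -0.05, so that Ambra1 changed sides.

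Among the genes of membrane supply, 3 of 5 were higher in CHBP+ M-MDSC by the read test and 0 lower. For all genes tested the shares were 21.9% higher and 22.2% lower. Atg2b (ENSMUSG00000041341, chromosome 12 from 105613539 to 105685241), one of a pair of proteins that carry lipid into the growing membrane, had 1081 and 1411 reads, or 6.45 and 8.52 FPKM. Its fold was 1.32 (1.22 to 1.43) and its log2 ratio 0.35, the third highest of the 47, and -0.13 with the transcript trend removed. Its paralog Atg2a had 674 and 759 reads and a fold of 1.14 (1.03 to 1.27), and Atg9a, the scramblase of the seed vesicles, had 694 and 745 reads and a fold of 1.09 (0.98 to 1.21). Atg9a overlaps Ankzf1, which had 554 and 565 reads. The phosphoinositide readers Wipi1 and Wipi2 parted: Wipi1 had 534 and 610 reads (fold 1.16, 1.03 to 1.30), whereas Wipi2 had 1298 and 1203 reads, or 6.16 and 5.78 FPKM (fold 0.94, 0.87 to 1.02). The ratio of their folds was 1.23 (1.07 to 1.42). With the trend removed they stood at 0.18 and -0.26, since the transcript of Wipi2 is the longer one.

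The conjugation enzymes, which attach ATG12 to ATG5 and ATG8 proteins to lipid, had 0 genes higher and 2 of 7 lower by the read test. The shares over all genes tested were 21.9% higher and 22.2% lower. Atg3 (ENSMUSG00000022663, chromosome 16 from 45158785 to 45188538), the E2-like enzyme that hands LC3 to lipid, had 2277 and 1883 reads, or 40.2 and 33.6 FPKM. Its fold was 0.837 (0.787 to 0.890) and its log2 ratio -0.25. Atg16l2, a minor relative of Atg16l1, had 255 and 197 reads and a fold of 0.782 (0.646 to 0.946), whereas Atg16l1, which places the enzyme on the membrane, had 799 and 837 reads, or 2.97 and 3.15 FPKM, and a fold of 1.06 (0.96 to 1.17). Atg7, the E1-like enzyme for both reactions, had 1433 and 1463 reads and a fold of 1.03 (0.96 to 1.11). Atg12 had 1499 and 1489 reads (fold 1.01, 0.94 to 1.08) and its partner Atg5 had 1328 and 1213 (fold 0.92, 0.85 to 1.00). Atg10, the E2-like enzyme for ATG12, had 223 and 189 reads and a fold of 0.86 (0.70 to 1.05). Removing the transcript trend left Atg3 at -0.11, Atg16l2 at -0.15, Atg16l1 at 0.02 and Atg12 at 0.10, and Atg10 changed sides to 0.02.

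The transcription factors of the TFEB family, which mTORC1 keeps in the cytoplasm, bind E-boxes with the letters CACGTG, often as GTCACGTG, in promoters of lysosomal and autophagy genes. The RefSeq promoter table (GRCm38.p6, 300 bases a window) held 47 windows of 40 of the 47 genes. CACGTG was found in the windows of 5 genes, Atg3, Atg5, Atg7, Atg14 and Rheb, and GTCACGTG, searched on both strands and containing the first motif, in those of all of these but Atg5. Over all 32851 windows, 7.15% held CACGTG and 2.25% GTCACGTG. Of the 47 windows of these 40 genes, 5 (10.6%) and 4 (8.51%) did. The parts before the start site are printed for 4 of the genes, 5′ to 3′ on the strand of the gene, to show the matches in capitals. In Atg14 the match spans the start site and is not printed.
Atg3 (chr16:45158693-45158803, + strand): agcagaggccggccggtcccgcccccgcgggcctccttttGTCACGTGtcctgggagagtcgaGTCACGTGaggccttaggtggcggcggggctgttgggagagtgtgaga
Atg5 (chr10:44268285-44268338, + strand): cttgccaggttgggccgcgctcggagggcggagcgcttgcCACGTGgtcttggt
Atg7 (chr6:114670922-114671009, + strand): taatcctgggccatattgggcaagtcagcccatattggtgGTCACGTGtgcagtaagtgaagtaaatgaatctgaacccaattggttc
Rheb (chr5:24842412-24842499, - strand): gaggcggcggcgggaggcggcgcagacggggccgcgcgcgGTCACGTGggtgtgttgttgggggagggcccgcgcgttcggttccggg
Atg3 held 2 matches, 94 and 71 bases before the start site, and the single matches of Atg7, Rheb and Atg5 lay 132, 96 and 14 bases before it. The RefSeq starts of Atg7, Rheb and Atg3 lie within the deposited spans of these genes, and that of Atg7 lies far from the edge. The printed parts of Atg7 and Rheb thus lie inside those spans, and that of Atg3 runs into its span. The log2 ratios of these 5 genes were -0.25 for Atg3, -0.19 for Rheb, -0.11 for Atg5, 0.04 for Atg7 and 0.05 for Atg14, so that genes with a match stood on both sides of 0. A match is a description of these letters and was not tested as a binding site.

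None of the 4 ATG4 proteases, which trim ATG8 proteins before conjugation and release them from lipid afterwards, passed the read test. Across all genes tested, 44.1% passed. Atg4c was highest, with 444 and 503 reads, or 5.07 and 5.81 FPKM, and a fold of 1.15 (1.01 to 1.31). Atg4a was lowest, with 480 and 417 reads, or 9.62 and 8.46 FPKM, and a fold of 0.88 (0.77 to 1.01). Atg4b, the main protease of the family, had 761 and 759 reads (fold 1.01, 0.91 to 1.12), and Atg4d had 298 and 258 (fold 0.88, 0.74 to 1.04). After removal of the transcript trend, Atg4c stood at 0.18, Atg4a at -0.04, Atg4b at -0.07 and Atg4d at -0.08. Atg4b and Atg4d overlap Thap4 and Kri1, which had 239 and 140, and 982 and 1215 reads.

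The ATG8 proteins were the only role in which every gene had a log2 ratio below 0, 5 of 5, where 53.7% of all genes did. All 5 have transcripts under 2 kb in the GENCODE M1 annotation, and of all genes with a transcript under 3 kb only 21.1% were above 0. Together the 5 genes had 835 CPM in CHBP- and 669 CPM in CHBP+ M-MDSC, a sum 0.80-fold as high, and most of that was Gabarap. Gabarap (ENSMUSG00000018567, chromosome 11 from 69991143 to 69994951) had 9889 reads in CHBP- and 7424 in CHBP+ M-MDSC (180.2 and 137 FPKM). Its fold was 0.760 (0.738 to 0.783) and its log2 ratio -0.39, the second lowest of the 47. Map1lc3b, which encodes LC3B, the ATG8 protein most used to follow autophagy, had 914 and 824 reads, or 5.24 and 4.79 FPKM, and a fold of 0.91 (0.83 to 1.00). Gabarapl1 had 2138 and 1932 reads (fold 0.915, 0.860 to 0.973), Gabarapl2 704 and 617 (fold 0.887, 0.795 to 0.990) and Map1lc3a 125 and 88 (fold 0.71, 0.54 to 0.94). With the transcript trend removed, Map1lc3b, Gabarapl1 and Gabarapl2 stood above 0, at 0.09, 0.06 and 0.04, and Gabarap and Map1lc3a stayed below, at -0.14 and -0.05. With the trend in deposited length removed, all 5 stayed below 0, from -0.30 for Gabarap to -0.02 for Gabarapl1, so that the direction of 3 of the 5 rested on which length was used. The fold of Gabarap was lower than that of its paralog Gabarapl1, with a ratio of 1.20 (1.12 to 1.29) for Gabarapl1 over Gabarap.

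Of the cargo receptors, Sqstm1 (ENSMUSG00000015837, chromosome 11 from 50199366 to 50210827), which encodes p62, a receptor for ubiquitin-marked cargo that is itself degraded by autophagy, was by far the most abundant. It had 9035 reads in CHBP- and 7826 in CHBP+ M-MDSC (78.2 and 68.5 FPKM). Its fold was 0.877 (0.851 to 0.904) and its log2 ratio -0.19, and -0.12 with the transcript trend removed. Nbr1, a relative of p62 that acts with it, had 1596 and 1794 reads, or 8.84 and 10.1 FPKM, a fold of 1.14 (1.06 to 1.22) and a log2 ratio of 0.17, and Optn, a receptor for microbes and mitochondria, had 330 and 339 reads and a fold of 1.04 (0.89 to 1.21). With the trend removed, Nbr1 stood at 0.02.

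Paralogs and partners were set side by side in 12 pairs drawn from the 47 genes, chosen after their values were seen. The gene with the higher fold was put on top in each, and Gabarapl1 and Gabarapl2 were both set beside Gabarap. No share was computed for pairs of genes in general, so the counts that follow describe the chosen pairs only. The exact 95% interval of the ratio of folds excluded 1 in 10 of them, for counting error only, and the gene with the longer transcript had the higher fold in 11 of 12. The exception was Wipi1 and Wipi2. The widest gap beyond counting error was that of Atg16l1 over Atg16l2, with a ratio of folds of 1.36 (1.09 to 1.68), followed by Atg4c over Atg4a at 1.30 (1.08 to 1.57). Akt2 over Akt1 gave 1.24 (1.13 to 1.37) and Tsc1 over Tsc2 1.20 (1.04 to 1.39).

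In 8 lists of neighbouring genes, 97 of 105 names were found and 88 genes were kept. Of these, 2 were at least 1.5-fold higher and 1 lower in CHBP+ M-MDSC, and of the 93 with reads enough to test, 29 passed higher and 20 lower by the exact binomial read test. Over all genes, 3.42% were that much higher and 2.89% lower by fold, and 21.9% passed higher and 22.2% lower by reads. Wdfy3, the scaffold ALFY that brings aggregates to the machinery, had 810 and 1594 reads and a log2 ratio of 0.79, and 0.16 with the transcript trend removed. Tti1, which helps to assemble mTOR and related kinases, had 321 and 620 reads and a log2 ratio of 0.75, which stayed at 0.70. The nearest other gene with at least 10 reads, Rprd1b, lies 63 bases from Tti1 and went the other way, with 836 and 221 reads, and whether reads were assigned differently between this pair in the 2 libraries was not tested. Akt1s1, which encodes the mTORC1 inhibitor PRAS40, had 367 and 176 reads and a log2 ratio of -0.68, which became -0.56. It overlaps Tbc1d17, which had 480 and 361 reads. Of these genes Tti1 alone stayed past 1.5-fold with the transcript trend removed, and Akt1s1 did too, at -0.75, with the trend in deposited length removed. Sesn3, a stress-induced inhibitor of mTORC1 signalling with only 50 and 85 reads, came past it under both, at 0.64 and 0.68.

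Among the Rag GTPases, Ragulator and FLCN partners, which place mTORC1 on the lysosome, 8 of 12 kept genes were below 0, where 53.7% of all genes kept were, and 6 with the trend in deposited length removed. Lamtor4 was lowest at -0.58 and Fnip1 highest at 0.54. Among AMPK subunits and upstream kinases, Prkag1 was lowest at -0.35 and Cab39 highest at 0.11. With the transcript trend removed, Prkag1 stood at -0.14, Stk11 was lowest at -0.30 and Cab39 stayed highest at 0.06. With the trend in deposited length removed, 7 of the 8 kept genes were below 0, where 49.5% of all genes kept were above 0. By the read test, 3 of 9 genes of the AMPK list passed lower and 1 higher, where 22.2% and 21.9% of all genes tested did.

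Of the 8 lysosomal and autophagy transcription factors, 5 passed higher and 2 lower by the read test, where 21.9% and 22.2% of all genes tested did. Tfeb, the best known activator of the set, was lowest, with 388 and 292 reads, or 2.55 and 1.95 FPKM, and a fold of 0.762 (0.652 to 0.889), and Tfe3 had 1474 and 1298 reads and a fold of 0.892 (0.827 to 0.961). Zkscan3, a repressor of autophagy genes, was highest, with 1201 and 1496 reads and a fold of 1.26 (1.17 to 1.36). Higher too by the read test were Foxo1 (fold 1.20), Foxo3 (1.18), Mitf (1.18) and Tfec (1.10). Foxo4 was within counting error, with a fold of 0.89 (0.79 to 1.01). With the transcript trend removed, the log2 ratio was -0.16 for Tfeb, -0.40 for Tfe3 and 0.07 for Zkscan3. Tfec then stood at 0.31, Mitf at 0.05, Foxo1 at -0.02 and Foxo3 at -0.09.

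In the list of fusion and other machinery, Stx17, the SNARE of finished autophagosomes, was highest, with 566 and 847 reads and a log2 ratio of 0.51, and Vamp8, its partner on the lysosome, was lowest, with 2062 and 1366 reads and -0.56. With the transcript trend removed they stood at 0.28 and -0.42, so that both partners kept opposite signs. Of the receptors, Pink1, a kinase that marks damaged mitochondria, was lowest, with 724 and 462 reads and -0.56 (-0.46). Nprl2 at -0.31 and Sesn3 at 0.51 were the ends of the amino acid sensing list, and Rps6kb2 at -0.13 and Lpin1 at 0.33 those of the translation list. In that last list, Rps6 had 177 and 157 reads. How reads shared by near-identical gene copies were counted is not given, so values of genes with such copies are uncertain.

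**Figure D4:**
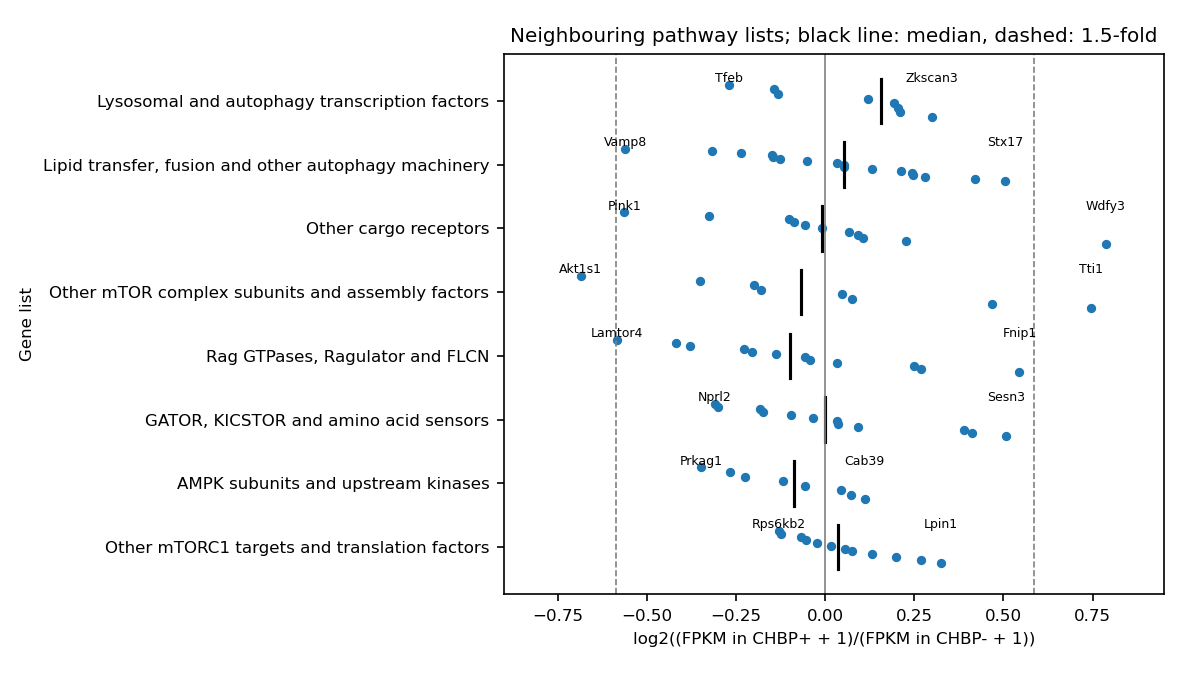
The log2 ratio of the 88 kept genes in 8 neighbouring lists, 1 point a gene, with the median of each list as a black line, 1.5-fold as dashed lines and the highest and lowest gene named. Most genes lie between the dashed lines, and Wdfy3, Tti1 and Akt1s1 lie past 1.5-fold.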

How the data were processed

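Total RNA of sorted mouse M-MDSC was sequenced as 1 library per condition, grouped by the labelled treatment. Per the labels, adapter sequence, low-quality ends, short reads and ribosomal RNA reads were removed. The methods name TopHat2, mm9 and HT-seq, whereas the submitters' processing notes list HISAT2 2.0.4, Cufflinks 2.1.1 and mm10. All 47 genes overlapped their RefSeq gene on GRCm38. The authors deposited raw read counts per gene and FPKM. FPKM equalled the count divided by a length and by the library total. That length matched the sum of all distinct GENCODE M1 exons, overlapping ones counted repeatedly, for 23 of the 47 genes (within 0.1%), and was up to 6.18 times the longest transcript. The largest excess was in Map1lc3b, with a length of 10574 bases and 1 GENCODE M1 transcript of 1712 bases. FPKM thus understates genes whose length exceeds their transcript. Where the lengths that did not match came from was not tested. The strand setting of the counting was not given in the sources used here.

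From the deposited counts and FPKM, log2 ratios were computed with a pseudocount of 1 FPKM, over genes that reached 1 FPKM in either library. Reads were compared by two-sided exact binomial tests and adjusted by Benjamini-Hochberg over genes of 10 reads or more in all. The test was tried on simulated reads that held counting error only, so the simulation says nothing of spread between cultures or libraries. The trend with length was fitted by local regression (fraction 0.3). The coordinates are those deposited. No P value between conditions was computed, since the DESeq test of the methods needs replicates. Genes named in full were those past 1.5-fold and, in each of 10 roles, the highest and lowest log2 ratio and the highest FPKM. The genes and lists were chosen with earlier results of these data known. One further gene list is not reported here. Python 3.11.15, scipy 1.17.1, statsmodels 0.14.6, R 4.3.3, edgeR 4.0.16 and DESeq2 1.42.0 (size factors only) were used.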

Additional observations from a re-analysis of the deposited data

How the results depend on the processing

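The number of genes at least 1.5-fold higher in CHBP+ M-MDSC was 1 (Rictor) and went to 0 with the trend in the length behind the deposited FPKM removed, to 0 with the trend in longest transcript removed, and to 0 at a fold threshold of 2. It was 1 with a pseudocount of 0.1, no filter, at least 5 FPKM, CPM, trimmed mean of M values, DESeq2 size factors, overlapping genes left out, or FPKM recomputed with the longest transcript. The number 1.5-fold lower was 0 under all of these. The median log2 ratio stayed between -0.04 and 0.06. The number of genes past counting error was 21 to 26. With the trend in longest transcript removed, the sign of 16 of the 47 log2 ratios changed and 28 left their counting interval, and with the trend in deposited length 13 changed. Both settings on the longest transcript were chosen after seeing the data. With 1 library per condition no replicate could be left out. No paired analysis was possible because each condition has 1 library. Depth limits Map1lc3a most, the gene with the fewest reads.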
